A study of Mus musculus with 12 samples.

Results

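The genes described here encode secreted and membrane-bound metalloproteinases and their inhibitors in mouse fibroblasts. They were the protein-coding genes whose symbols begin with Mmp, Adam, Adamts, Adamtsl or Timp followed by a digit, with a mean over all libraries of at least 1 count per 1000000 counts (CPM). Of 83 such genes among 54447 features, 34 passed: 11 ADAMs, 9 ADAMTSs, 3 ADAMTSLs, 2 membrane-anchored MMPs, 6 secreted MMPs and 3 TIMPs. The members nearest to the limit were Mmp3 at 1.38 and Adam33 at 1.48 CPM, and the first genes below it were Mmp10 at 0.888 and Adam1a at 0.636 CPM. With a limit of 0.5 CPM there would have been 38 members, and with 2 CPM there would have been 29. Of the 49 family genes under the limit, 16 had no read in any library, among them Mmp7, Mmp8, Mmp27 and Adamts3, whereas Timp4, Adamts9, Adamts15, Mmp13 and Mmp15 were among those with reads.

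RNA sequencing compared 4 groups of 3 libraries. Cells carried either N-VEGF, a fragment from the N-terminus of the long VEGF isoform, or NLS-N-VEGF, the same protein fused to a nuclear localization sequence taken from Cas9, and both populations were studied without and with doxycycline (dox), the inducer of their Tet-on promoter. The series asked how the transcriptome responds once N-VEGF enters the nucleus. All cells shared the lentiviral vector, which also encodes the Tet activator and puromycin resistance. Per the labels they were mouse embryonic fibroblasts, and the study's methods name NIH3T3, an established mouse fibroblast line. No group lacked an insert, so dox itself and the induced protein cannot be told apart within a population. The library labels of each group end in 1_120519, 2_120519 and 2_290419, here called 1a, 2a and 2b, so suffix a and suffix b stand for the closing number, whose meaning the labels do not give. Nor do they say that libraries came from separate cultures, so p-values measure only the spread between these libraries, which may be technical.

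Metalloproteinases use a zinc ion to cut proteins outside the cell or at its surface. MMPs degrade collagens and other matrix proteins, ADAMs release the outer parts of membrane proteins, and ADAMTSs cut matrix proteoglycans or trim procollagens. ADAMTSL proteins resemble ADAMTSs but lack the protease domain, and TIMPs block the active sites of many of these enzymes. Fibroblasts are a main source of both the enzymes and the TIMPs in connective tissue.

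The libraries held between 13549331 and 18982127 counts, and the members together took 0.271% to 0.304% of them. At that depth, 3 counts corresponded to 0.158 to 0.221 CPM. Reads from the construct insert numbered 5 to 12 in each uninduced library, 35 to 173 in NLS-N-VEGF cells with dox and 121 to 268 in N-VEGF cells with dox. Library 2b had the most in both dox groups: 173 against 48 and 35 in NLS-N-VEGF cells, and 268 against 121 and 149 in N-VEGF cells. Of 10 fibroblast markers, 9 had at least 10 CPM and Lum had 0.407, and their sum lay between 10958 and 13924 normalised CPM. The markers of other cell types summed to 2.03 to 3.79 (6 epithelial), 2.39 to 4.49 (4 endothelial), 2.44 to 5.62 (4 leukocyte), 0.123 to 0.804 (3 muscle) and 20.6 to 33.1 normalised CPM (3 neural), and 1 epithelial, 1 leukocyte and 2 muscle markers were at 0 in every library. N-VEGF library 1a stood apart from its partner: the chi-square per gene between the suffix a libraries was 23.9 in N-VEGF cells and 1.68 to 4.59 in the other groups.

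Levels were compared between genes per kilobase of exon, on the scale of CPM normalised for library composition (mean ± SD over 12 libraries). Timp2, Mmp2 and Timp1 led the list. Timp2, which also takes part in the activation of pro-MMP2, had the highest level of all members at 207 ± 17.5. Mmp2, gelatinase A, followed at 155 ± 11.9 and Timp1, a broad MMP inhibitor, at 95.4 ± 28.9. The ranges of Timp2 (185 to 232) and Mmp2 (145 to 185) overlapped at their edge, and those of Timp1 (64.7 to 148) and Mmp2 overlapped.

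Adam9 at 58.6 ± 4.76 was the highest ADAM, and Adam10, the main sheddase of Notch and cadherins, was next at 31.0 ± 3.07. Mmp14, the membrane-anchored activator of pro-MMP2, had 28.6 ± 3.82, within the range of Adam10. Against the longest transcript in place of all exons, Mmp14 had 52.6. Adamts1, which cuts versican and aggrecan and binds VEGF, was the highest ADAMTS at 17.2 ± 4.27 and seventh among the members. Timp3, which is held in the matrix and also blocks ADAM17 and ADAMTS enzymes, had 12.1 ± 4.57. That was much the same as Adam17, the sheddase of TNF and of EGFR ligands, at 12.1 ± 1.10. Against the longest transcript Adamts1 had 18.7 and rank 10, behind Timp3 (20.9), Adam15 (20.7) and Adam17 (19.3).

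Adam9 varied little, with 249, 240 and 217 normalised CPM in NLS-N-VEGF cells, 264, 253 and 241 with dox, 196, 236 and 246 in N-VEGF cells, and 252, 267 and 234 with dox. Its lowest value was in N-VEGF library 1a, which stood apart from the others. Adamtsl5 led the ADAMTSLs at 8.17 ± 0.81 per kilobase. The lowest 7 members, with under 0.8 per kilobase, were Mmp3, Mmp16, Mmp28, Mmp9, Adam11, Adam33 and Adamtsl1, and Adamtsl1 had 0.231. Their reads were few: Mmp9, the other gelatinase, had 10 to 44 reads per library and Mmp3, a stromelysin, 8 to 39. The kit does not mark strand, and exons of 10 members overlap an exon of a gene on the opposite strand. The overlap was largest for Mmp19 (28.3% of its exon bases), Timp3 (21.3%, with Syn3) and Adam15 (20.6%). Syn3 itself had 0.630 CPM, and Tmem198b, which overlaps Mmp19, had 19.5 CPM.

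**Figure D1:**
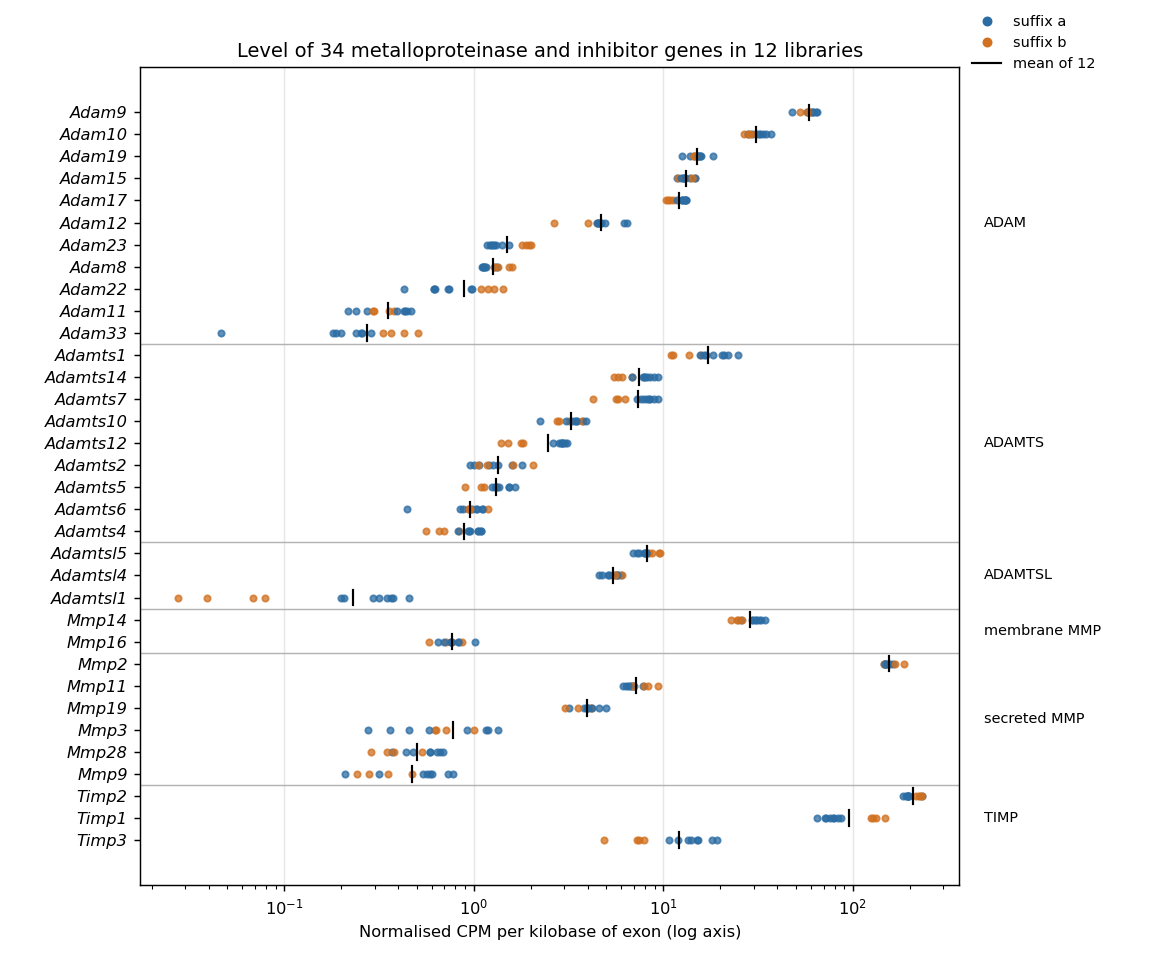
Normalised CPM per kilobase of exon (log axis) for the 34 members, grouped by family, with 1 point per library coloured by label suffix and a black bar at the mean of the 12 libraries. Timp2, Mmp2 and Timp1 sit highest, at means of 207, 155 and 95.4, and Timp1, Timp3 and Adamtsl1 show the 2 suffixes as separate clouds.

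Promoter sequence is shown for Adamts1 and for the inhibitors Timp1 and Timp3, which differed in opposite directions between the suffixes. Adamts1 did not pass in the first dox test described below, and passed only in some alternative fits. RefSeq promoter windows (GRCm38.p6) matched 20 of the 34 members in 22 windows. In the 250 bases upstream of each start, 4 motifs were searched on both strands: the AP-1 site TGAGTCA, the core of the hypoxia response element ACGTG, the GC box GGGCGG and the TATA box TATAAA, each also as its reverse complement. The sequences run 5′ to 3′ on the gene's strand and end at the base before the first annotated base of the gene. Capitals mark the motifs found, and none of them overlap.
Adamts1, chr16:85803114-85803363, minus strand: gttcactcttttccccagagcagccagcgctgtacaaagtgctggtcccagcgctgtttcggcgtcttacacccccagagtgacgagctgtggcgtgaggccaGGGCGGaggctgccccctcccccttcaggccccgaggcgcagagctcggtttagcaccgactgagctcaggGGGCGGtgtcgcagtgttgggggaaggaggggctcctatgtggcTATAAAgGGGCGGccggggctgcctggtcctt
Timp1, chrX:20869916-20870165, plus strand: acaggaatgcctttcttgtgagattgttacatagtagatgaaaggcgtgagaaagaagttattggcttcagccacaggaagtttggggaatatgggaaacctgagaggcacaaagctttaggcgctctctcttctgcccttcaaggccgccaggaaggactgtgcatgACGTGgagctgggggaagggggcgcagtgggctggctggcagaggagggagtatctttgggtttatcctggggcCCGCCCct
Timp3, chr10:86300162-86300371, plus strand: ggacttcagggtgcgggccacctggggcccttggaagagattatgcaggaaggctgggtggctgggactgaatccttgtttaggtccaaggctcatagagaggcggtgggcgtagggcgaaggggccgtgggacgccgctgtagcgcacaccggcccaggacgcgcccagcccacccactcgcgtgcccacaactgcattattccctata

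Adamts1 held a TATA box that begins 32 bases upstream of the gene and 3 GC boxes that begin 147, 76 and 25 bases upstream. Timp1 held 1 ACGTG core 82 bases upstream and 1 GC box 8 bases upstream. The Timp3 window was cut to 210 bases because the annotated gene begins 40 bases before the RefSeq start, and the 210 bases held none of the 4 motifs. Over the full windows, a GC box was in 15 of 22 member windows (68.2%) and in 32.7% of all 32851 windows. Timp3 was counted among the 15, with a GC box that is not wholly within the 210 bases printed. A TATA box was in 2 of 22 member windows, Adamts1 and Mmp3 (9.09%), and in 12.4% of all. The ACGTG core was in 5 of 22 (22.7%) against 16.6% of all, and the AP-1 site was in 2 of 22, Adam19 and Mmp3 (9.09%), against 4.46% of all. The comparison took all windows, without the limits on gene type and level by which the members were chosen. These matches describe letters in a window and were not tested.

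Dox was compared with no dox in each population. No member passed an adjusted p of 0.05 in edgeR's quasi-likelihood test with 1 mean per group, in NLS-N-VEGF cells, where 0.0220% of 13608 genes passed, or in N-VEGF cells, where 0.0367% did. With the dox effects of both populations averaged, 0.0588% of genes and none of the members passed. At an unadjusted p under 0.05 there were 1, 1 and 2 of the 34 members, and 318, 201 and 423 genes in all. The genes were 2.34%, 1.48% and 3.11% of all those tested. The Wald test of DESeq2 called 0 members in each of the 3 comparisons. The median log2 fold change of the members was 0.01 in NLS-N-VEGF cells and 0.02 in N-VEGF cells, against 0.00 and 0.00 over all genes, and 19 and 17 of the 34 members lay above 0.

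Libraries that share number and suffix deviated from their group means together, so the comparison was also fitted with number and suffix together as a replicate block. It lowered the common spread of a gene between libraries from 15.5% to 7.86% (biological coefficient of variation). Then 0.125% of genes passed in NLS-N-VEGF cells, 0.110% in N-VEGF cells and 0.566% with both effects averaged. Among the members, 1 passed in N-VEGF cells and in the average, and it was Adamts1 in both. Unadjusted p-values under 0.05 were held by 8, 4 and 9 of the 34 members, against 989, 735 and 1266 genes. The genes were 7.27%, 5.40% and 9.30% of all those tested.

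Adamts1 was lower with dox in both populations. It was chosen with its fall in 1 population already known from these data. Its values, tests and refits are therefore no independent support for that fall. In NLS-N-VEGF cells it stood at 117, 109 and 83.6 normalised CPM in libraries 1a, 2a and 2b, and with dox at 89.4, 96.6 and 59.9. In N-VEGF cells it stood at 111, 132 and 72.2, and with dox at 86.4, 82.5 and 57.9. All 6 same-numbered pairs were lower with dox, by log2 ratios between -0.67 and -0.17, and the groups overlapped because the suffix b library was the lowest in every group.

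With the block, edgeR gave Adamts1 a log2 fold change of -0.46 ± 0.08 (SE) in N-VEGF cells (adjusted p 0.0433). In NLS-N-VEGF cells it was -0.35 ± 0.08, which did not pass (adjusted p 0.181). With both effects averaged it was -0.40 ± 0.06 (adjusted p 0.00294). Without the block the same values were -0.47 ± 0.24, -0.33 and -0.40 ± 0.17, and none passed (adjusted p 0.9999 in N-VEGF cells). In the same blocked average 2 of 10 fibroblast markers passed, both lower: Pdgfra, a growth factor receptor (-0.49, adjusted p 0.0042), and Dcn, decorin (-0.54, adjusted p 0.0058). The part of the cells' marker levels in the change of Adamts1 was not tested. The difference between its 2 dox effects was 0.11 ± 0.12 with the block and 0.14 ± 0.34 without, and did not pass. The genome position of Adamts1 is chr16:85793827-85803113 on the minus strand (GRCm38), and no exon of it overlaps another gene's exon.

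Leaving out each of the 12 libraries in turn kept the blocked average of Adamts1 past the threshold 12 times, with log2 fold changes from -0.45 to -0.35 and adjusted p-values from 5.8e-04 to 0.0191. The call in N-VEGF cells alone was lost in 7 of 12 fits. Without N-VEGF library 2a its log2 fold change was -0.35 (adjusted p 0.555), and without the N-VEGF dox libraries 1a, 2a and 2b the adjusted p was 0.107, 0.428 and 0.271. Leaving out NLS-N-VEGF library 1a, or NLS-N-VEGF dox library 1a or 2a, gave 0.0598, 0.0707 and 0.0553. Without N-VEGF library 1a, which stood apart, the change was -0.49 (adjusted p 0.0195). In bulk RNA, fewer cells that express the gene and less RNA per cell cannot be told apart.

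**Figure D2:**
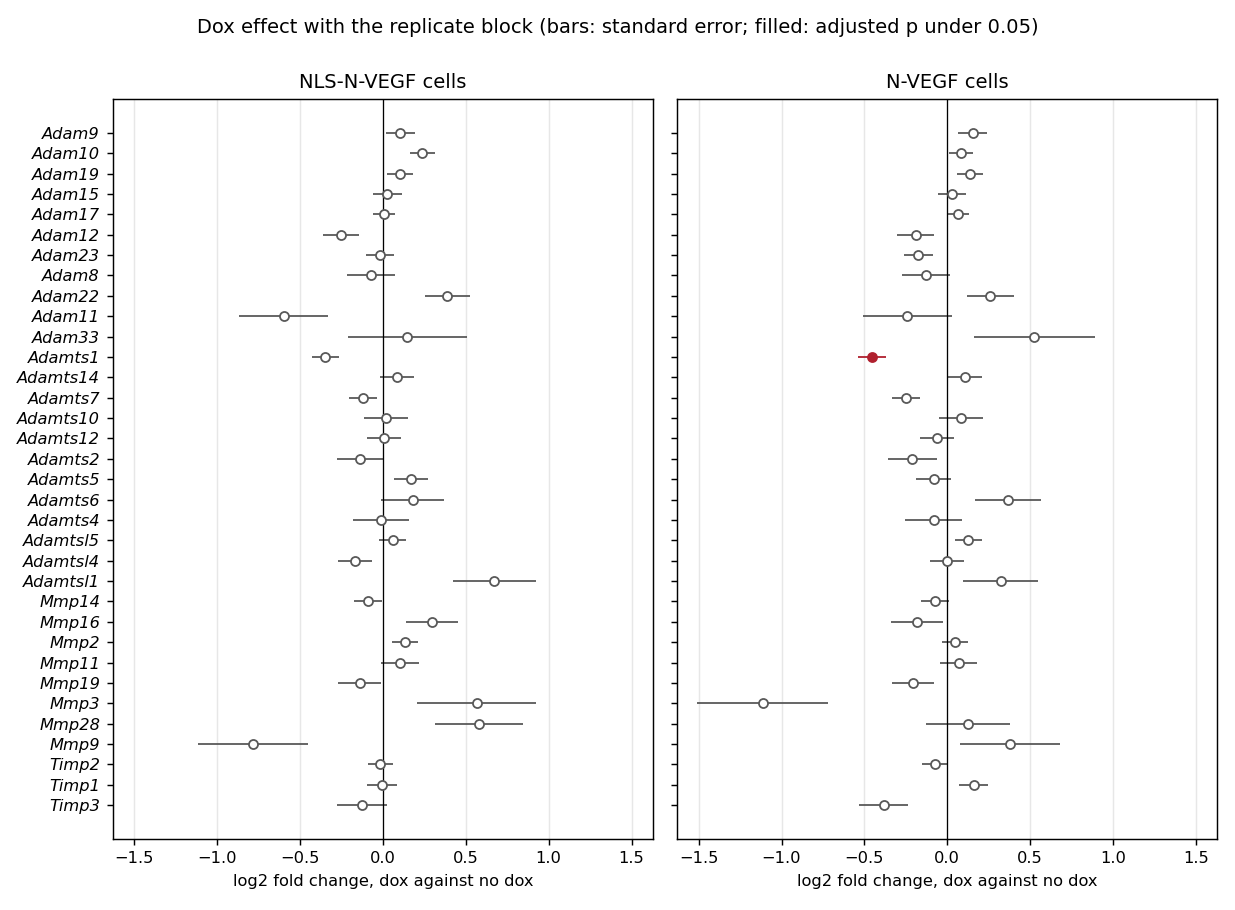
The log2 fold change of each member with dox, from the fit with the replicate block, in NLS-N-VEGF cells (left) and N-VEGF cells (right). Bars are standard errors, and a filled point has an adjusted p under 0.05, which is Adamts1 in N-VEGF cells alone, at -0.46.

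The other members with dox were described by their values, since none passed. Adam10 had 151, 145 and 130.4 normalised CPM in NLS-N-VEGF cells and 181, 171 and 152 with dox, so that the groups did not overlap. Its log2 fold change was 0.24 ± 0.10 (unadjusted p 0.0374, adjusted p 0.9998 in edgeR). In N-VEGF cells it had 138, 156 and 141, and 159, 166 and 137 with dox, and the groups overlapped.

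Adam11, a catalytically inactive ADAM of neural tissue, was at 2.65, 2.45 and 2.14 normalised CPM in NLS-N-VEGF cells and at 1.23, 1.55 and 2.01 with dox. These groups did not overlap either, at 21 to 46 reads per library over the series, and all 6 pairs were lower with dox. In N-VEGF cells the values were 2.51, 2.22 and 1.69, and 2.44, 1.36 and 1.67 with dox, where 2 of the pairs barely differed. With Adamts1 and Adam11, Adamts7 and Mmp19 were lower in all 6 pairs, so 4 members were, where 2.96% of genes were. Adamtsl1 was higher in all 6, where 2.73% of genes were. Some of these pairs hardly differed, with log2 ratios as near to 0 as -0.01 for Adam11, -0.02 for Adamts7 and -0.002 for Mmp19, and of the 5 members Adamts1 alone passed, with the block.

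Without the block, Adamts6 had the third smallest p of the members with dox in N-VEGF cells (0.143), and Mmp16, a membrane-anchored MMP, that for the difference of the dox effects (0.0660). Adamts6 had 7.99, 7.61 and 7.28 normalised CPM in NLS-N-VEGF cells, 8.09, 8.69 and 9.29 with dox, 3.46, 6.84 and 7.34 in N-VEGF cells, and 8.62, 6.62 and 7.43 with dox. Mmp16 had 6.56, 5.59 and 6.21 in NLS-N-VEGF cells, 7.23, 8.76 and 6.69 with dox, 6.54, 6.59 and 7.52 in N-VEGF cells, and 6.06, 7.16 and 5.02 with dox. In N-VEGF cells both overlapped between the dox states, and the low Adamts6 value was that of library 1a. With the block, the smallest unadjusted p-values of the averaged dox effect after Adamts1 were those of Adam22 (0.32 ± 0.10, p 0.0044), Adam10 (0.16 ± 0.05, p 0.0065) and Adamts7 (-0.18 ± 0.06, p 0.0065), with adjusted p-values of 0.213 to 0.266. Adam22 was higher with dox in 5 of 6 pairs, by log2 ratios from -0.005 to 0.72.

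In NLS-N-VEGF cells 4 members (Adam10, Adamts6, Mmp16 and Mmp28) were higher with dox in all 3 libraries than in all 3 without it, where 4.78% of all genes were. One member, Adam11, was lower throughout, where 4.48% were. In N-VEGF cells 0 members were higher throughout, where 2.13% of genes were, and 1, Adamts2, was lower throughout, where 1.79% were.

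For Mmp3 and Mmp9 the dox estimates had opposite signs in the 2 populations, at low counts. Mmp3 had 1.67, 0.82 and 1.29 normalised CPM in NLS-N-VEGF cells, 2.09, 2.43 and 1.12 with dox, 2.14, 1.05 and 1.81 in N-VEGF cells, and 0.50, 0.65 and 1.14 with dox. Mmp9 had 2.13, 2.58 and 0.86, 1.12, 0.74 and 1.24, 2.07, 1.91 and 0.99, and 2.75, 2.01 and 1.67 in the same order. The difference of the dox effects was 1.70 ± 0.60 on the log2 scale for Mmp3 (unadjusted p 0.0148, adjusted p 0.9999) and -1.21 ± 0.58 for Mmp9, and neither passed. None of the 13608 genes passed for this difference (0%), without or with the block, and 116 and 464 genes had an unadjusted p under 0.05.

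**Figure D3:**
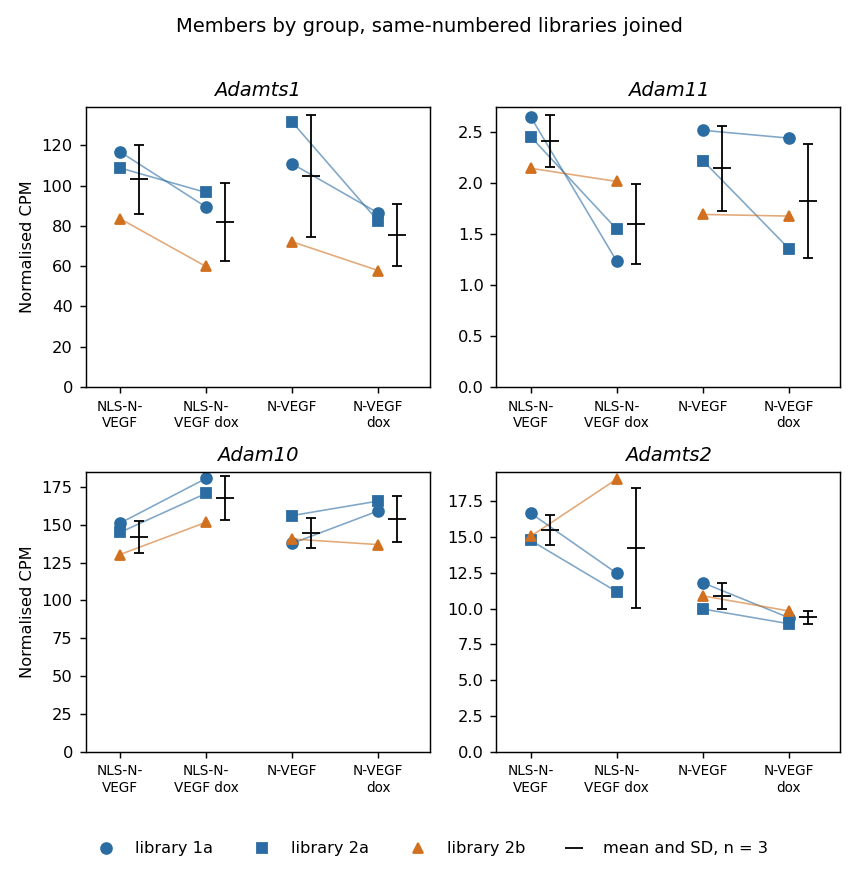
Normalised CPM by group for Adamts1, Adam11, Adam10 and Adamts2, with lines between the libraries of the same number and suffix and black bars for the mean and SD of 3 libraries. Every Adamts1 line falls, from 72.2 to 132 without dox to 57.9 to 96.6 with it in the 2 populations together, and within a dox state the Adamts2 points of NLS-N-VEGF cells all lie above those of N-VEGF cells.

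The TIMPs did not pass with dox in either population. Without the block, Timp1 had log2 fold changes of 0.01 in NLS-N-VEGF cells and 0.17 in N-VEGF cells, and Timp2 of -0.01 and -0.07. Timp3 had log2 fold changes of -0.19 in NLS-N-VEGF cells and -0.35 in N-VEGF cells. Within the suffix a libraries alone, the averaged change of Timp3 was -0.30 (adjusted p 0.0330), and in that setting Adam12, an ADAM of mesenchymal cells, was -0.41 in NLS-N-VEGF cells (adjusted p 0.0317).

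The populations were compared without dox, with dox and averaged over both. In edgeR no member passed in any of the 3 comparisons, and neither did any gene (0% each). With the replicate block the shares of genes were 0%, 0.0147% and 0%, again with no member. Without the block, 1, 3 and 3 of the 34 members had an unadjusted p under 0.05, among 82, 160 and 166 genes. Those genes were 0.603%, 1.18% and 1.22% of all tested. With the block, 6, 7 and 9 members did, where 3.67%, 4.56% and 5.43% of genes did. DESeq2 likewise called 0 members in these comparisons.

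Adamts2, which removes the N-terminal propeptide of fibrillar procollagens, had the smallest p. It stood at 16.7, 14.8 and 15.1 normalised CPM in NLS-N-VEGF cells and 12.5, 11.2 and 19.1 with dox, against 11.8, 9.98 and 10.9 in N-VEGF cells and 9.37, 8.95 and 9.84 with dox. NLS-N-VEGF cells were above N-VEGF cells in every library of the same dox state, with an averaged log2 fold change of 0.56 ± 0.12 (unadjusted p 7.1e-04, adjusted p 0.999, and 0.382 with the block). Without the NLS-N-VEGF dox library 2b, the highest of all, it was 0.42.

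Besides Adamts2, Adam19 was higher in all 3 NLS-N-VEGF libraries than in all 3 N-VEGF libraries without dox, so 2 members were above where 1.76% of genes were, and 0 below where 1.49% were. With dox, Adamts2 and Adam12 were above throughout (2.99% of genes) and Mmp9 below throughout (3.50%). Adam12 had 65.5, 68.3 and 47.2 normalised CPM in NLS-N-VEGF cells and 49.4, 52.1 and 48.2 with dox. It had 47.4, 49.5 and 42.3 in N-VEGF cells and 48.2, 47.5 and 28.0 with dox. These members were chosen for naming after their values were seen.

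More members passed for the label suffix than for dox or population. In a fit with group and suffix, 22 of 34 members (64.7%) passed between suffix b and suffix a libraries, where 45.6% of all genes passed. Of them 8 members (23.5%) were higher in the suffix b libraries and 14 (41.2%) lower, where 20.2% and 27.3% of the 11133 protein-coding genes of at least 1 CPM were. The median log2 fold change of the members was -0.10, against 0.01 over all genes, and the median size of a change was 0.27 against 0.21. The suffix b libraries lay above all suffix a libraries for 5 members (13.1% of genes) and below all of them for 5 (14.9% of genes). In principal components of the 34 members the first component held 45.7% of the variance and placed the suffix a libraries between -3.27 and -2.07 and the suffix b libraries between 3.998 and 7.25. Each suffix was present in all 4 groups, so it was not confounded with dox or population. Whatever differed between the 2 sets of libraries, including the construct reads with dox, cannot be told apart.

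**Figure D4:**
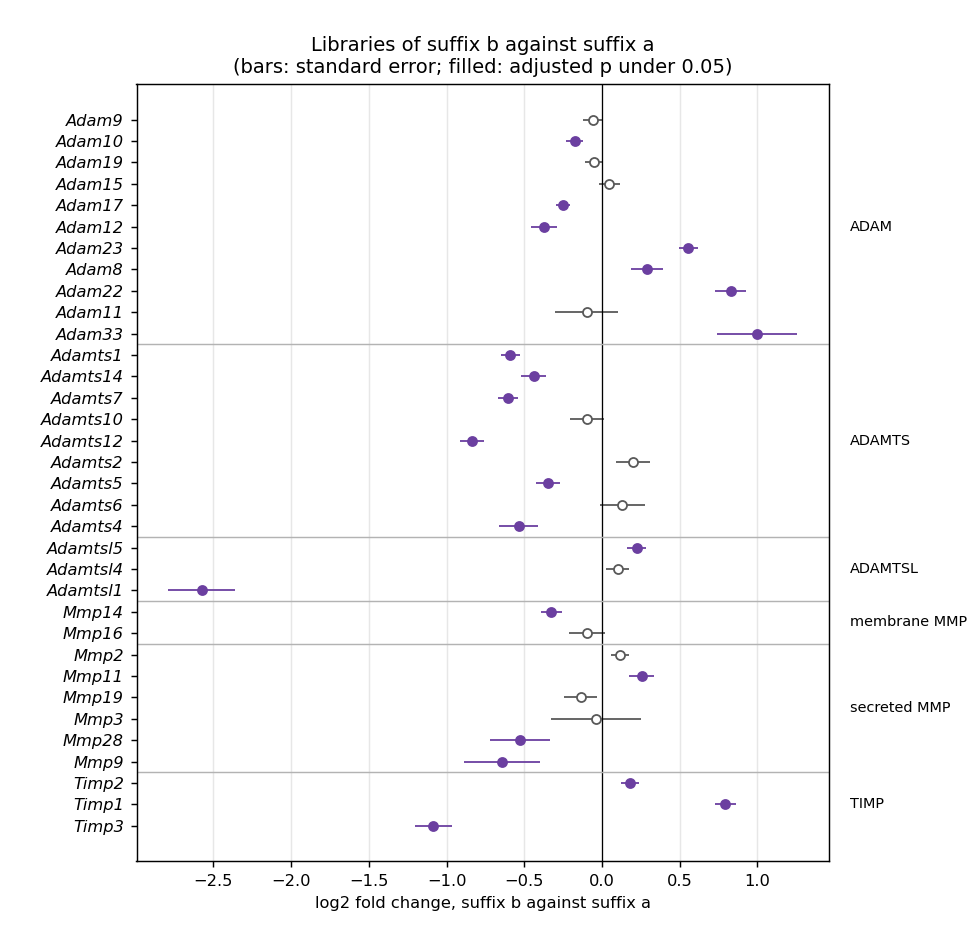
The log2 fold change of each member in the 4 libraries of suffix b against the 8 of suffix a, with standard errors and with filled points for an adjusted p under 0.05. Of the 22 filled points 14 lie to the left, among them 6 of the 9 ADAMTSs. Of protein-coding genes of at least 1 CPM, 27.3% passed in that direction. Adamtsl1 at -2.58 lies apart from its family, and the TIMPs spread from -1.09 (Timp3) to 0.79 (Timp1).

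The inhibitors passed in both directions. On GRCm38 the genes lie at chrX:20870166-20874735 (Timp1, plus strand), chr11:118301069-118355740 (Timp2, minus strand) and chr10:86300372-86349506 (Timp3, plus strand). Timp1 was at 63.6, 69.9 and 114 normalised CPM in NLS-N-VEGF cells, with the suffix b library last, at 67.2, 63.9 and 117 with dox, at 77.2, 57.5 and 111 in N-VEGF cells, and at 70.8, 74.2 and 131 with dox. The 4 libraries of suffix b (118 ± 9.02, n = 4) were all above the 8 of suffix a (68.0 ± 6.34, n = 8). Its log2 fold change was 0.79 ± 0.07 (edgeR adjusted p 2.7e-07), and within the groups it was 0.72 to 0.85.

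Timp3 went the other way. It was at 114, 109.9 and 58.9 normalised CPM in NLS-N-VEGF cells, 97.1, 87.4 and 64.1 with dox, 157, 148 and 60.4 in N-VEGF cells, and 122, 124 and 39.4 with dox. All suffix b libraries (55.7 ± 11.1, n = 4) were below all suffix a libraries (119.8 ± 23.5, n = 8), with a log2 fold change of -1.09 ± 0.12 (adjusted p 3.8e-06). The size of it varied, from -0.53 in NLS-N-VEGF dox cells to -1.64 in N-VEGF dox cells. Per kilobase of exon, the ratio of Timp1 to Timp3 within a library was 3.56 to 6.70 in the suffix a libraries and 16.7 to 30.5 in the suffix b libraries.

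Timp2 was at 763, 749 and 840.0 normalised CPM in NLS-N-VEGF cells, 743, 719 and 868 with dox, 903, 769 and 877 in N-VEGF cells, and 761, 760.4 and 904 with dox. It was higher in the suffix b libraries by 0.18 ± 0.06 on the log2 scale (adjusted p 0.0168), but the suffixes overlapped, since N-VEGF library 1a, which stood apart, was among the highest. Without that library the change was 0.21 (adjusted p 1.4e-04), and the call was lost without NLS-N-VEGF library 2a or 2b, NLS-N-VEGF dox library 2b or N-VEGF dox library 2b, with adjusted p-values of 0.0511 to 0.0886.

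**Figure D5:**
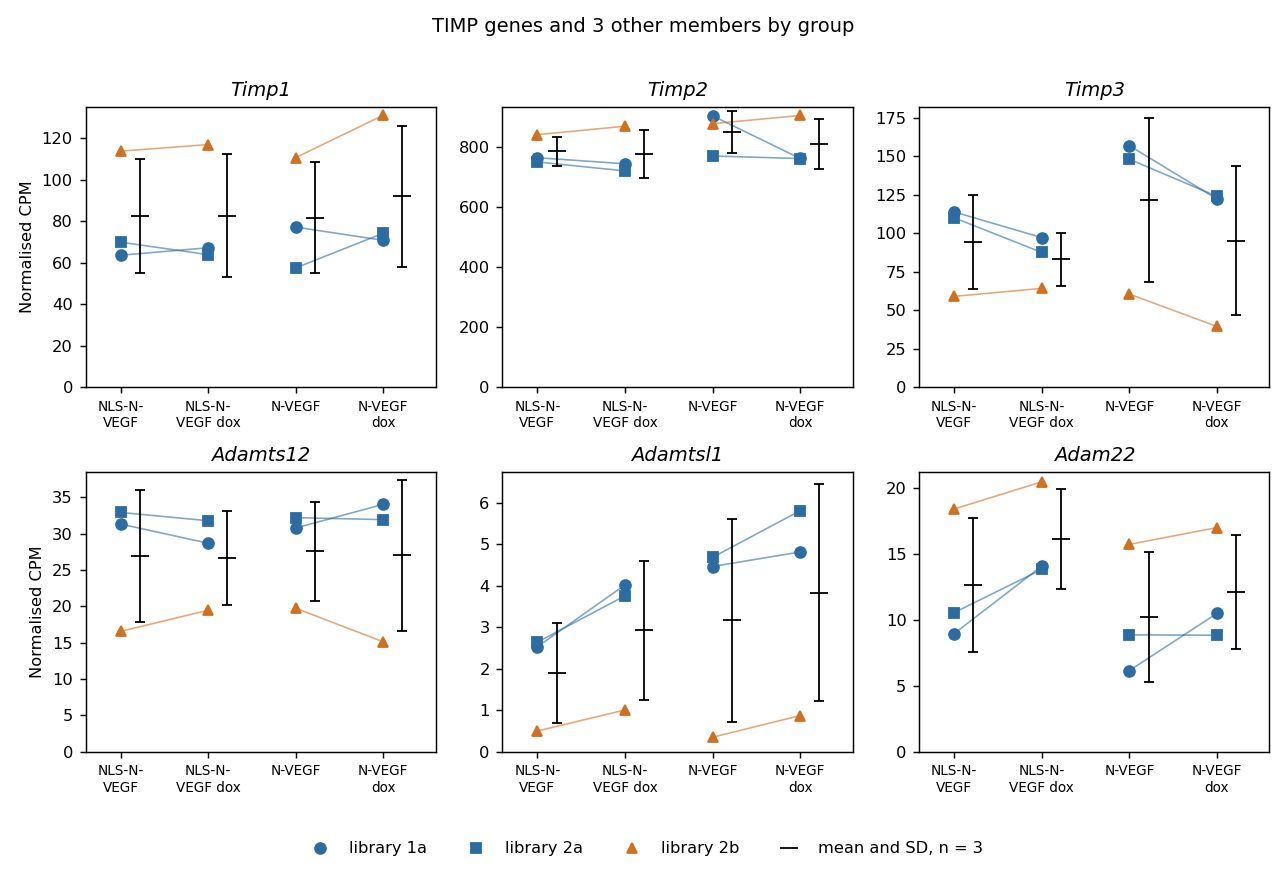
Normalised CPM by group for the 3 TIMPs and for Adamts12, Adamtsl1 and Adam22, with the suffix b libraries as orange triangles and black bars for the mean and SD of 3 libraries. Orange triangles lie above the other libraries of every group for Timp1 (111 to 131) and Adam22, and below them for Timp3 (39.4 to 64.1), Adamts12 and Adamtsl1.

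Of the ADAMTS proteases 6 of 9 were lower in the suffix b libraries and 0 were higher. Of the protein-coding genes of at least 1 CPM, 27.3% were lower and 20.2% higher. The 6 ADAMTSs were Adamts12, Adamts7, Adamts1, Adamts4, Adamts14 and Adamts5. They include the proteoglycan-cutting enzymes Adamts1, Adamts4 and Adamts5 and the procollagen-trimming Adamts14. Adamts12, a protease of cartilage oligomeric matrix protein, had 31.3, 32.9 and 16.6 normalised CPM in NLS-N-VEGF cells, 28.7, 31.8 and 19.5 with dox, 30.8, 32.2 and 19.8 in N-VEGF cells, and 34.1, 31.9 and 15.1 with dox. It did not overlap between the suffixes, with a log2 fold change of -0.84 ± 0.08 (adjusted p 9.0e-07).

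Adamts7, which cuts the same cartilage protein, had 59.1, 53.6 and 39.2 normalised CPM in NLS-N-VEGF cells, 51.4, 53.0 and 35.4 with dox, 49.5, 55.8 and 36.0 in N-VEGF cells, and 48.1, 45.5 and 26.7 with dox. The change was -0.61 ± 0.06 (adjusted p 2.1e-06), with no overlap. For Adamts1 it was -0.59 ± 0.06 (adjusted p 3.1e-06) and -0.75 to -0.43 within the groups, which was not tested against its dox effect. Adamts4 (-0.54), Adamts14 (-0.44) and Adamts5 (-0.35) had adjusted p-values of 0.0028, 3.6e-04 and 0.0017. Adamts2, Adamts6 and Adamts10 did not pass, with log2 fold changes of 0.20, 0.13 and -0.10.

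Among the ADAMTSLs the protease-lacking Adamtsl1 showed the largest change of any member. It had 2.53, 2.64 and 0.50 normalised CPM in NLS-N-VEGF cells, 4.02, 3.75 and 1.01 with dox, 4.46, 4.68 and 0.35 in N-VEGF cells, and 4.81, 5.80 and 0.87 with dox. The suffix b libraries, with 6 to 17 reads each, were all below the suffix a libraries, with 42 to 107 reads, and the log2 fold change was -2.58 ± 0.22 (adjusted p 3.0e-07). Adamtsl5 had 34.2, 38.9 and 39.6 normalised CPM in NLS-N-VEGF cells, 37.5, 35.1 and 44.7 with dox, 32.7, 37.8 and 40.9 in N-VEGF cells, and 38.1, 38.1 and 45.6 with dox. It was higher in the suffix b libraries by 0.22 ± 0.06 (adjusted p 0.0064), with no overlap, and Adamtsl4 did not pass.

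Of the 11 ADAMs 4 passed as higher in the suffix b libraries and 3 as lower. Of the protein-coding genes of at least 1 CPM, 20.2% were higher and 27.3% lower. The higher ADAMs included the inactive, LGI-binding Adam22 and Adam23. Adam22 had 8.97, 10.6 and 18.4 normalised CPM in NLS-N-VEGF cells, 14.1, 13.8 and 20.5 with dox, 6.16, 8.87 and 15.7 in N-VEGF cells, and 10.5, 8.84 and 17.0 with dox. Its log2 fold change was 0.83 ± 0.10 (adjusted p 8.4e-06) and the suffixes did not overlap.

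Adam23 had 22.7, 22.1 and 33.8 normalised CPM in NLS-N-VEGF cells, 21.1, 21.9 and 35.05 with dox, 27.3, 25.3 and 35.8 in N-VEGF cells, and 22.9, 23.3 and 32.2 with dox. It was higher by 0.56 ± 0.06 (adjusted p 2.8e-06), again with no overlap. Adam33, at 4 to 41 reads per library, had 1.38, 1.07 and 1.78 normalised CPM in NLS-N-VEGF cells, 1.02, 1.55 and 2.31 with dox, 0.25, 1.29 and 1.98 in N-VEGF cells, and 1.37, 0.98 and 2.75 with dox. It was higher by 0.998 ± 0.258 (adjusted p 0.0050), without overlap.

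Adam8, an ADAM best known from leukocytes, had 6.15, 5.22 and 7.14 normalised CPM in NLS-N-VEGF cells, 5.999, 5.30 and 6.22 with dox, 5.22, 5.36 and 7.402 in N-VEGF cells, and 5.12, 5.26 and 5.96 with dox. The suffix b library was the highest of each group, and the change of 0.29 ± 0.10 (adjusted p 0.0304) lost its call without NLS-N-VEGF library 2a or 2b, NLS-N-VEGF dox library 2a, N-VEGF library 2a or 2b, or N-VEGF dox library 1a or 2b (adjusted p 0.0512 to 0.164). Adam17 had 94.8, 93.4 and 77.1 normalised CPM in NLS-N-VEGF cells, 91.2, 94.5 and 80.2 with dox, 84.0, 89.2 and 74.0 in N-VEGF cells, and 93.5, 89.9 and 75.5 with dox, so that all suffix b libraries lay below all suffix a libraries. The tests passed for the sheddases Adam17 (-0.25 ± 0.05, adjusted p 4.5e-04) and Adam10 (-0.18 ± 0.05, adjusted p 0.0127) and for Adam12 (-0.37 ± 0.08, adjusted p 0.0019), all lower in the suffix b libraries. Adam9, Adam15, Adam19 and Adam11 did not pass.

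Among the MMPs, Mmp14 was lower by 0.33 on the log2 scale (-0.33 ± 0.07, adjusted p 9.7e-04). It had 191, 183 and 145 normalised CPM in NLS-N-VEGF cells, 177, 154 and 155 with dox, 206, 195 and 135 in N-VEGF cells, and 183, 174 and 147 with dox, so that the suffix b library was the lowest in 3 of 4 groups. Mmp2, its substrate, had 495, 491 and 532, 549, 496 and 625, 523, 501 and 489, and 509.7, 497 and 562 in the same order, and did not pass (0.12 ± 0.06, adjusted p 0.105).

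Mmp11, a stromelysin, had 17.6, 18.5 and 22.9 normalised CPM in NLS-N-VEGF cells, 21.8, 19.2 and 21.9 with dox, 18.7, 19.5 and 19.3 in N-VEGF cells, and 16.9, 18.1 and 25.9 with dox. It was higher in the suffix b libraries by 0.26 ± 0.08 (adjusted p 0.0177), with overlap, and the call was lost without NLS-N-VEGF library 2b (0.22, adjusted p 0.0903) or N-VEGF dox library 2b (0.15, adjusted p 0.177). Mmp28 (-0.53 ± 0.19, adjusted p 0.0362) and Mmp9 (-0.64 ± 0.25, adjusted p 0.0426) were lower at 19 to 50 and 10 to 44 reads per library. Within NLS-N-VEGF dox cells the Mmp9 change had the opposite sign, at 0.38. Its call was kept only without NLS-N-VEGF dox library 2a or 2b, N-VEGF library 1a or N-VEGF dox library 2a, and over the 12 fits with a library left out its log2 fold change was -0.93 to -0.42 and its adjusted p 0.0063 to 0.221. Mmp3, Mmp16 and Mmp19 did not pass.

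Genes that act with these proteases were given as 4 lists. With dox, 0 of their 57 tested genes passed in edgeR without the block, in either population or the average, and at an unadjusted p under 0.05 there were 4, 4 and 6, where 2.34%, 1.48% and 3.11% of all genes were. With the block there were 11, 9 and 15, where 7.27%, 5.40% and 9.30% of all genes were. The block let 1 pass, in the average of both populations, and it was Dcn, a small matrix proteoglycan that is also one of the fibroblast markers. Between the suffixes, where 45.6% of all genes passed, 4 of 18 tested activators and inhibitors outside the families were higher and 3 lower. Plau, urokinase, was higher by 0.51 ± 0.08, and Plat, the tissue plasminogen activator, was lower (-0.45 ± 0.07), as was the membrane-bound MMP inhibitor Reck (-0.51 ± 0.10).

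Beside the counts that follow, 20.2% of the protein-coding genes of at least 1 CPM were higher in the suffix b libraries and 27.3% lower. Of 7 tested partners of ADAM10 and ADAM17, Rhbdf2, which escorts ADAM17, was higher (0.62 ± 0.12). Tspan14, a tetraspanin partner of ADAM10, was lower (-0.39 ± 0.07). Of 14 tested matrix substrates 5 were higher, led among well-measured genes by Thbs1, thrombospondin (1.88 ± 0.10), and Nid1, nidogen (1.02 ± 0.06), and 5 were lower, among them Fn1, fibronectin (-0.55 ± 0.08). Of 18 tested membrane proteins that ADAMs shed, 5 were higher, among them Csf1 (0.54 ± 0.05) and Ereg (0.70 ± 0.09), and 8 lower, among them Egfr (-1.35 ± 0.14) and Notch2 (-0.49 ± 0.06). Beside these, 3 of 10 fibroblast markers were higher and 4 lower, and of the markers of other cell types that could be tested, 1 epithelial, 1 leukocyte and 1 neural were higher at sums of a few CPM for the first 2 lists. Their part in the differences between suffixes was not tested.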

How the data were processed

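The authors prepared TruSeq v2 RNA libraries, trimmed single reads with Trim Galore, aligned them to GRCm38 by TopHat2 2.1.0 with Bowtie2 2.2.6, and took gene counts from HTSeq 0.6.1. The strand setting of the counting is not given in the sources used here. The deposited table holds raw counts that were not normalized. All 34 members matched the GENCODE release M21 annotation of the same build, which gave exon lengths and positions.

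Counts were tested with edgeR 4.0.16 in R 4.3.3. Scaling was by TMM, filterByExpr kept 13608 genes including all 34 members, and the quasi-likelihood fit took all 12 libraries with a mean for each group. For the suffix, group and suffix were fitted together. P-values were two-sided and adjusted by Benjamini-Hochberg over all 13608 genes, separately in each comparison, and the threshold was 0.05. Every adjusted p in the text is from edgeR unless another tool is named, and SE values of log2 fold changes were derived from its F statistic. Log2 ratios of pairs used a pseudocount of 0.5 normalised CPM. A library's 3-count floor covers counting error only, since reads were counted without molecular identifiers. No pair of replicates agreed within sampling noise.

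The replicate block used number and suffix together (1a, 2a and 2b). Their pairing comes from the labels and was checked: over 12057 genes, deviations from the group means correlated at 0.35 to 0.80 in all 18 same-labelled pairs, above the limit of 0.1. All 12 pairs of the same suffix and another number were above it too (0.17 to 0.63), and a block of suffix alone left a common spread of 7.93% against 7.86%, so the number added little to the suffix.

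The members and lists were chosen with earlier results of these data known. Named with values in every library were Adamts1, the TIMPs, and members past the threshold for dox or population with or without the block. Of those past it for the suffix, the 6 highest and 6 lowest log2 fold changes were so named, and the 6 smallest in size. The highest per length of each family and those with the smallest p for dox were named in the same way. The alternatives were DESeq2 1.42.0, RLE scaling, other filters, replicate and suffix blocks, the suffix a libraries alone, the compared groups alone and each library left out. The blocked leave-outs for Adamts1 were added after seeing the data. Promoter windows came from RefSeq (GRCm38.p6). Code was tested on simulated counts, and figures were drawn with matplotlib 3.10.9.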

Additional observations from a re-analysis of the deposited data

How the results depend on the processing

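Counts of members past the threshold were 0 in the 7 comparisons of dox and population, and stayed 0 with DESeq2, RLE scaling, at least 10 counts in every library and each library left out (lowest and highest 0), as they did where the groups were compared alone. With the replicate block the count was 1 for dox in N-VEGF cells and 1 for the average, both Adamts1, and the block changed no other member's call. With a suffix block it was again 1 and 1, where 13 and 73 of 13608 genes passed. In the suffix a libraries alone it was 1 for dox in NLS-N-VEGF cells (Adam12), where 109 of 13387 genes passed. For the average in those libraries it was 2 (Adamts1, -0.41, adjusted p 0.0142, and Timp3), where 135 of 13387 genes passed. For the populations averaged over dox it was 1 there (Timp3, -0.43, adjusted p 0.0307), where 4 of 13387 genes passed. With no filter beyond 1 count in any library, 31229 genes were tested. The count was then 1 for the average (Adamts1, adjusted p 0.0048), where 77 genes passed. It was 1 for the populations averaged (Adamts2, adjusted p 0.0350), where 10 genes passed. The cause of these gains was not tested. The suffix count of 22 ranged from 16 to 23 with a library left out. Within single groups, where 1 library stood against 2, it was 10 in NLS-N-VEGF, 8 in NLS-N-VEGF dox, 10 in N-VEGF and 13 in N-VEGF dox cells, with fewer libraries in each comparison. For the suffix fits within single groups and with a library left out, the share of all genes passing is not given. Those counts therefore do not set the members apart from other genes, of which 45.6% passed with all 12 libraries. The Mmp9 suffix difference reversed to 0.38 within NLS-N-VEGF dox cells, and the cause was not tested. Of 387 refits of single named members, 334 kept direction and side of the threshold, 45 kept direction and lost the call, 7 gained one and 1 reversed. Mmp3, Mmp9, Mmp28, Adam11 and Adam33 had at most 50 reads in any library, which limits their precision.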
